A study of Danio rerio with 24 samples.

Results

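The ablation response described here is the change, between 2dpi and 4dpi, of the difference in gene expression between ablated and intact retinal pigment epithelium (RPE) of DMSO-treated zebrafish larvae. It was taken from 12 of the 24 libraries of the study, as the MTZ+ minus MTZ- difference at 4dpi less the same difference at 2dpi, for every one of the 25281 genes listed. Of these, 17741 passed the filter on low counts and were tested. All 12 libraries came from eGFP+ cells sorted by fluorescence-activated cell sorting (FACS) from *rpe65a*:nfsB-eGFP larvae, which carry a bacterial nitroreductase fused to eGFP under the promoter of the visual cycle gene *rpe65a*. MTZ+ larvae received 10 mM metronidazole (MTZ), a prodrug that the nitroreductase turns into a toxin within the expressing cell, at 5 days post-fertilization (dpf), and MTZ- larvae carried the same transgene without MTZ. The 4 groups of 3 libraries were MTZ+ DMSO 2dpi and MTZ- DMSO 2dpi, collected at 7dpf, then MTZ+ DMSO 4dpi and MTZ- DMSO 4dpi, collected at 9dpf, and DMSO, the vehicle of the drugs used in the rest of the study, was given to all 4 from 4dpf. Each library pooled about 80 eyes of 40 larvae and at most 1000 sorted cells, so the sorted MTZ+ cells were those that held eGFP and were alive after ablation. Time after injury, larval age and collection date go together in this design and cannot be told apart.

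The RPE is a single pigmented layer behind the photoreceptors that recycles visual pigment, engulfs shed outer segments and moves ions, water and nutrients between blood and retina. In zebrafish, RPE that survives an injury re-enters the cell cycle and restores the layer, whereas the mammalian RPE does not. A cell that prepares to grow makes more ribosomes, which are assembled in the nucleolus by a large set of processing factors, and a cell that divides then copies its DNA and separates its chromosomes.

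The 12 libraries held between 20607731 and 34199334 counts, with 22230490 to 23195175 in MTZ+ 2dpi, 31730237 to 34199334 in MTZ- 2dpi, 20607731 to 30716905 in MTZ+ 4dpi and 29608508 to 32767111 in MTZ- 4dpi. The share of counts on mitochondrial genes was 6.83% to 9.25% in MTZ+ 2dpi libraries against 3.33% to 4.37% in MTZ- 2dpi libraries, and 7.86% to 11.9% in MTZ+ 4dpi libraries against 2.93% to 4.18% in MTZ- 4dpi libraries. MTZ- 4dpi libraries had the fewest genes with a count, 17101 to 17637, against 18030 to 19818 in the other 9, and 730 tested genes were at 0 in all 3 of them. The 9 RPE markers summed to 16751 to 33059.6 CPM (a count scaled to the size of its library, adjusted by the trimmed mean of M-values, for sums as for single genes) in MTZ+ 2dpi, 72062 to 91286 in MTZ- 2dpi, 26275 to 48276 in MTZ+ 4dpi and 72713 to 83709 in MTZ- 4dpi, with no marker at 0 in any group, so the labelled cell type was present throughout. In a bulk library, fewer cells of a type and less RNA per cell cannot be told apart. Markers of other cell types that the gate could hold are given beside some of the genes below.

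At 2dpi the ablation effect, MTZ+ over MTZ-, was called for 3622 genes (20.4% of those tested), 1823 higher (10.3%) and 1799 lower (10.1%). At 4dpi it was called for 4060 genes (22.9%), 2345 higher (13.2%) and 1715 lower (9.67%). A gene was called when its log2 fold change was above 1 in size, its Benjamini-Hochberg adjusted p from edgeR's quasi-likelihood test was under 0.05 and its largest group mean was at least 1 TPM, a level per transcript length. The 2 lists shared 2168 genes called in the same direction, which is 59.9% of the 2dpi calls and 53.4% of the 4dpi calls. Being called at 1 time and not at the other does not show a difference between the times, so the difference itself was tested.

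The change of the effect was called for 531 genes (2.99% of those tested), with 305 higher at 4dpi (1.72%) and 226 lower (1.27%). At an unadjusted p under 0.05 there were 3326. For 524 of the 531, the 3 log2 ratios of MTZ+ to MTZ- libraries collected on the same date did not overlap between 4dpi and 2dpi, against 26.6% of all genes tested. The calls came from these same libraries, so the non-overlap largely follows from the selection and is no separate evidence for them. The number called depended on single libraries. Without MTZ- 2dpi replicate 2 it was 234, without MTZ+ 2dpi replicate 3, MTZ- 2dpi replicate 1, MTZ+ 4dpi replicate 3 or MTZ- 4dpi replicate 1 it was 269 to 272, without MTZ+ 2dpi replicate 1 or 2 or MTZ+ 4dpi replicate 1 or 2 it was 302 to 343, and without MTZ- 4dpi replicate 2 it was 353. With the collection date as a block it was 331, and 159 of the 531 remained called in every one of the 12 removals.

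The 531 genes were placed by their calls at each time. The effect was called at 2dpi and not at 4dpi for 72 genes that were higher in MTZ+ cells (early up) and 69 that were lower (early down). It was called at 4dpi and not at 2dpi for 148 higher genes (late up) and 59 lower genes (late down). Another 39 genes were called in the same direction at both times with a smaller effect at 4dpi (reduced), 44 with a larger one (grown), and 16 in opposite directions (reversed). The other 84 were called at neither time by itself. Against these stood 1025 genes called higher and 1060 called lower at both times with no called change (sustained). Another 1297 genes were called at 2dpi only and 1669 at 4dpi only, also with no called change, and were not shown to differ between the times.

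**Figure D1:**
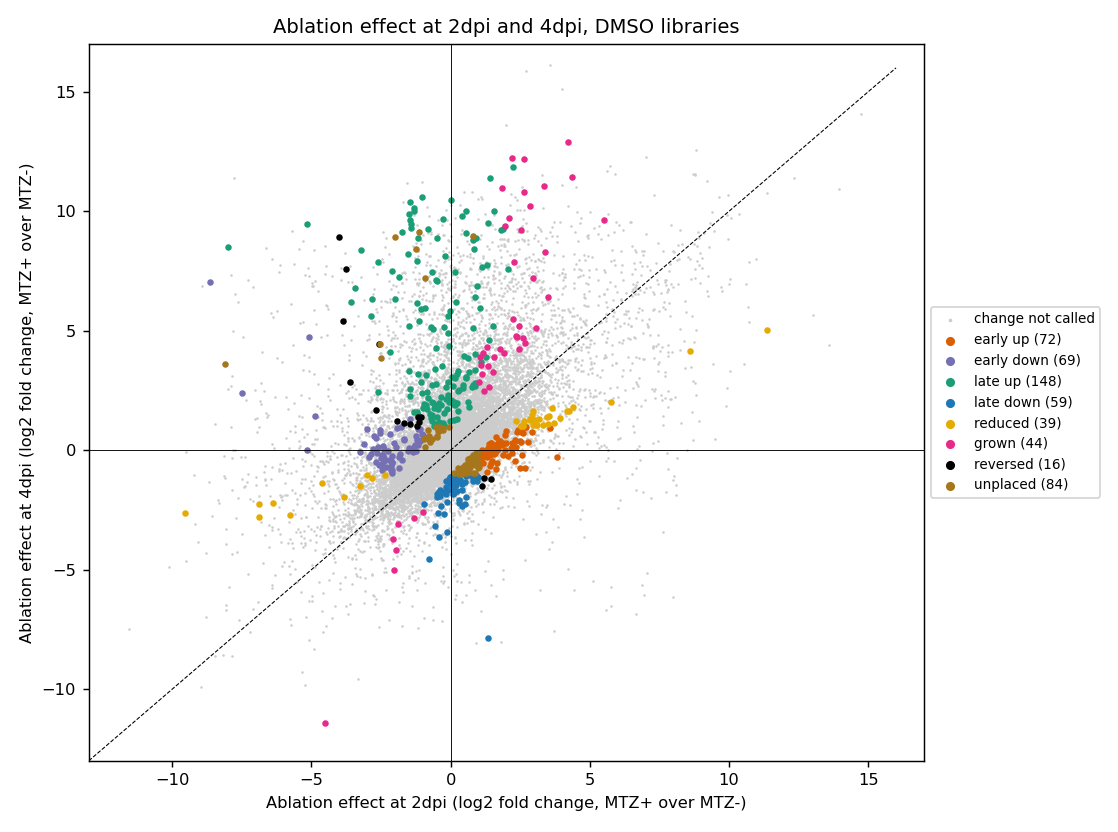
The ablation effect of each of the 17741 tested genes at 2dpi (x axis) and at 4dpi (y axis), both as log2 fold changes of MTZ+ over MTZ- libraries, with the 531 genes whose effect changed coloured by class and the dashed line marking equal effects. Late up genes lie above the line and early up genes below it, while most genes (grey) had no called change.

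A changing effect can go with a shift in MTZ+ cells, in MTZ- cells or in both, and the group means give each shift. A shift shared by both arms, such as one with collection date, cancels in the effect but stays in each arm's shift. The shifts given here and below therefore describe levels and do not assign a change to an arm. From 2dpi to 4dpi, early up genes had a median log2 shift of -0.81 in MTZ+ cells and 0.83 in MTZ- cells. The medians of early down genes were 0.85 in MTZ+ cells and -1.26 in MTZ- cells. Late up genes shifted by a median of 0.63 in MTZ+ cells and -2.30 in MTZ- cells, so the larger shift was in the intact larvae, whose levels were lower at 9dpf than at 7dpf. Late down genes shifted by -0.32 in MTZ+ cells and 1.28 in MTZ- cells. Over all 531 genes, the MTZ+ shift was the larger of the pair for 147. Among the 12159 genes with no call at either time or for the change, it was the larger for 5634. In 70 of the 531 at least 1 group had no more than 3 counts in any library, and the fitted size of such a change depends on the prior count of the fit.

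**Figure D2:**
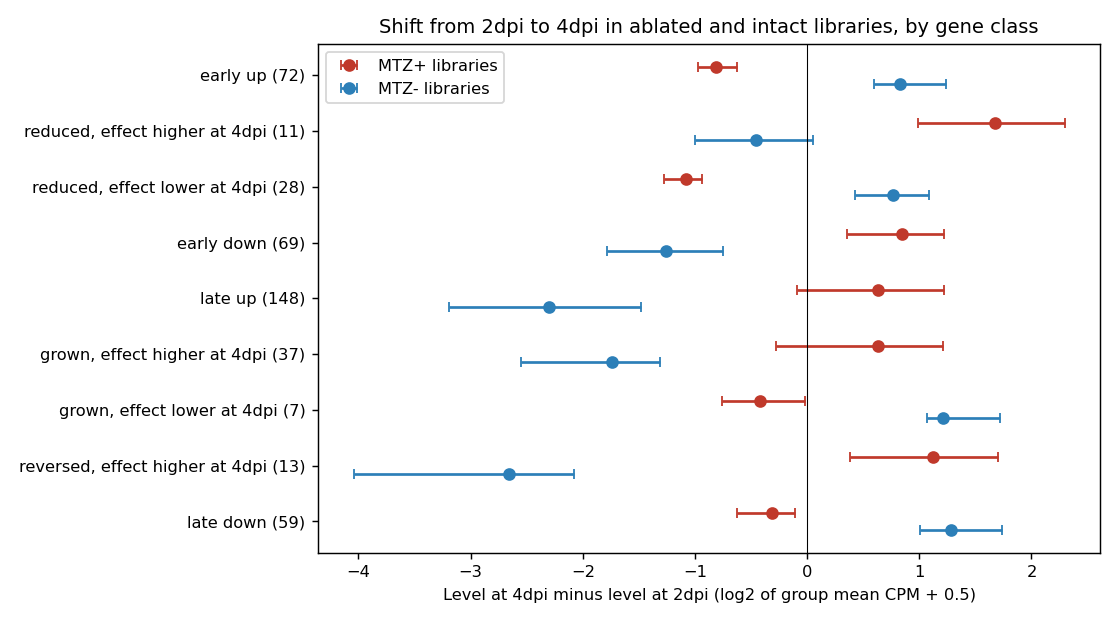
Shift of the group mean from 2dpi to 4dpi, as the difference of log2(CPM + 0.5), in MTZ+ libraries (red) and in MTZ- libraries (blue), for each class with its number of genes. Points are medians over genes and bars span the quartiles. In each of the 9 sets plotted the 2 medians have opposite signs, and the reduced genes whose effect was higher at 4dpi have the largest MTZ+ median, 1.67. The classes were chosen by the difference of these 2 shifts in the same libraries, which by itself favours opposite signs. Medians over all genes tested were 0.04 in MTZ+ and -0.05 in MTZ- libraries.

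The 8 early up genes named by their adjusted p had several roles, and *bccip*, whose protein binds BRCA2 and p21, was among them (change -2.22 ± 0.26, adjusted p = 0.00415). *Sdad1*, whose yeast counterpart Sda1 serves in the export of the large ribosomal subunit (chr21:9366967-9384374, GRCz11), had 62.6, 65.3 and 69.4 CPM in the 3 MTZ+ 2dpi libraries against 13.2, 10.9 and 9.59 CPM in the MTZ- 2dpi libraries. The 4dpi values were 34.5, 53.9 and 44.7 CPM in MTZ+ libraries against 64.7, 46.4 and 39.99 CPM in MTZ- libraries. The groups were apart at 2dpi and overlapped at 4dpi. The effect changed by -2.73 ± 0.33 on the log2 scale (n = 3 libraries a group, edgeR adjusted p = 0.00415). Here and throughout, ± is an approximate standard error derived from the F statistic of the test. Levels at 4dpi were lower in MTZ+ cells and higher in MTZ- cells than at 2dpi.

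*Nob1*, the endonuclease that makes the final cut of 18S rRNA, had 74.2, 69.4 and 90.4 CPM in MTZ+ 2dpi libraries against 20.1, 19.9 and 24.1 CPM in MTZ- 2dpi libraries. It had 46.9, 48.4 and 62.1 CPM in MTZ+ 4dpi libraries against 73.2, 61.4 and 46.3 CPM in MTZ- 4dpi libraries, again apart at the first time and overlapping at the second. Its effect changed by -2.07 ± 0.30 (adjusted p = 0.00726). The nucleolar genes *rsl1d1* (-2.73 ± 0.37, adjusted p = 0.00624) and *pinx1* (-2.33 ± 0.29, adjusted p = 0.00478), the second an inhibitor of telomerase, changed alike.

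The early up class also held genes of other roles. *Cbx7a*, a chromobox subunit of a Polycomb repressive complex, averaged 440 CPM in MTZ+ 2dpi against 30.9 CPM in MTZ- 2dpi, and 183 CPM in MTZ+ 4dpi against 223 CPM in MTZ- 4dpi, with a change of -4.11 ± 0.56 (adjusted p = 0.00624). *Srprb*, a membrane subunit of the receptor that docks ribosomes at the endoplasmic reticulum, averaged 175 CPM in MTZ+ 2dpi against 23.1 CPM in MTZ- 2dpi, and 88.6 CPM in MTZ+ 4dpi against 52.6 CPM in MTZ- 4dpi (change -2.17 ± 0.31, adjusted p = 0.00681). *Kpnb3*, an importin that carries proteins into the nucleus, had an effect of 2.50 ± 0.22 at 2dpi and 0.40 ± 0.21 at 4dpi, and *amotl2b*, an angiomotin that binds the Hippo pathway effector Yap, 1.43 ± 0.22 and -0.56 ± 0.22. The growth factor gene *vegfab* was early up as well (change -1.13 ± 0.26, adjusted p = 0.0380), but its call was lost in 10 of the 12 single-library removals, where the adjusted p ranged from 0.0444 to 0.0936.

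Ribosome biogenesis genes as a list were high after ablation at both times and less so at 4dpi. Of 60 such genes, 54 were called higher in MTZ+ cells at 2dpi and 0 lower, and at 4dpi 40 were called higher and 3 lower. Among all genes tested, 10.3% were called higher and 10.1% lower at 2dpi, and 13.2% higher and 9.67% lower at 4dpi. The median effect was 2.64 at 2dpi and 1.36 at 4dpi, against 0.02 and 0.20 over all genes tested. The change was called for 18, all lower at 4dpi (1.27% of all genes tested were), and 58 of the 60 changes were below 0, with a median of -1.39 against 0.14 for all genes tested. By class, 6 were early up, 8 reduced, 3 late down and 1 unplaced, and 32 were sustained up. With the date as a block 9 were called. Without any one of MTZ+ 2dpi replicates 1 to 3, MTZ- 2dpi replicate 1, MTZ+ 4dpi replicates 1 and 3 and MTZ- 4dpi replicate 1 the number was 6 to 10, and without any one of the others 12 to 15, while the median change lay between -1.57 and -1.21 in all 12. The median member shifted by -1.01 in MTZ+ cells and 0.33 in MTZ- cells.

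Among the members was nucleolin (*ncl*), the abundant RNA-binding protein of the nucleolus, which averaged 447 CPM in MTZ+ 2dpi against 107 CPM in MTZ- 2dpi, and 222 CPM in MTZ+ 4dpi against 263 CPM in MTZ- 4dpi (change -2.31 ± 0.41, adjusted p = 0.0155). *Rcl1*, needed in yeast for an early cut of the 18S precursor, had an effect of 2.78 ± 0.31 at 2dpi and 0.34 ± 0.29 at 4dpi. *Utp4*, of the small subunit processome, stayed higher in MTZ+ cells at both times, with 3.08 ± 0.27 at 2dpi and 1.07 ± 0.25 at 4dpi (change adjusted p = 0.0155). Outside the list, *mak16*, a factor of the large subunit (chr8:45394914-45416187), had 131, 144 and 135 CPM in MTZ+ 2dpi libraries against 14.1, 19.7 and 11.1 CPM in MTZ- 2dpi libraries. Its 4dpi values were 60.6, 69.6 and 60.2 CPM in MTZ+ libraries against 26.6, 22.6 and 28.8 CPM in MTZ- libraries. Its groups were apart at both times and the gap narrowed by 1.90 ± 0.29 (adjusted p = 0.0102). On the list, *tsr1*, a factor of the small subunit (change -2.55 ± 0.50, adjusted p = 0.0219), lost its call only without MTZ+ 4dpi replicate 3 among the removals (adjusted p = 0.0546), while *cd3eap*, a subunit of RNA polymerase I that is not on it (-2.28 ± 0.43, adjusted p = 0.0192), lost it with the date block (adjusted p = 0.0535).

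**Figure D3:**
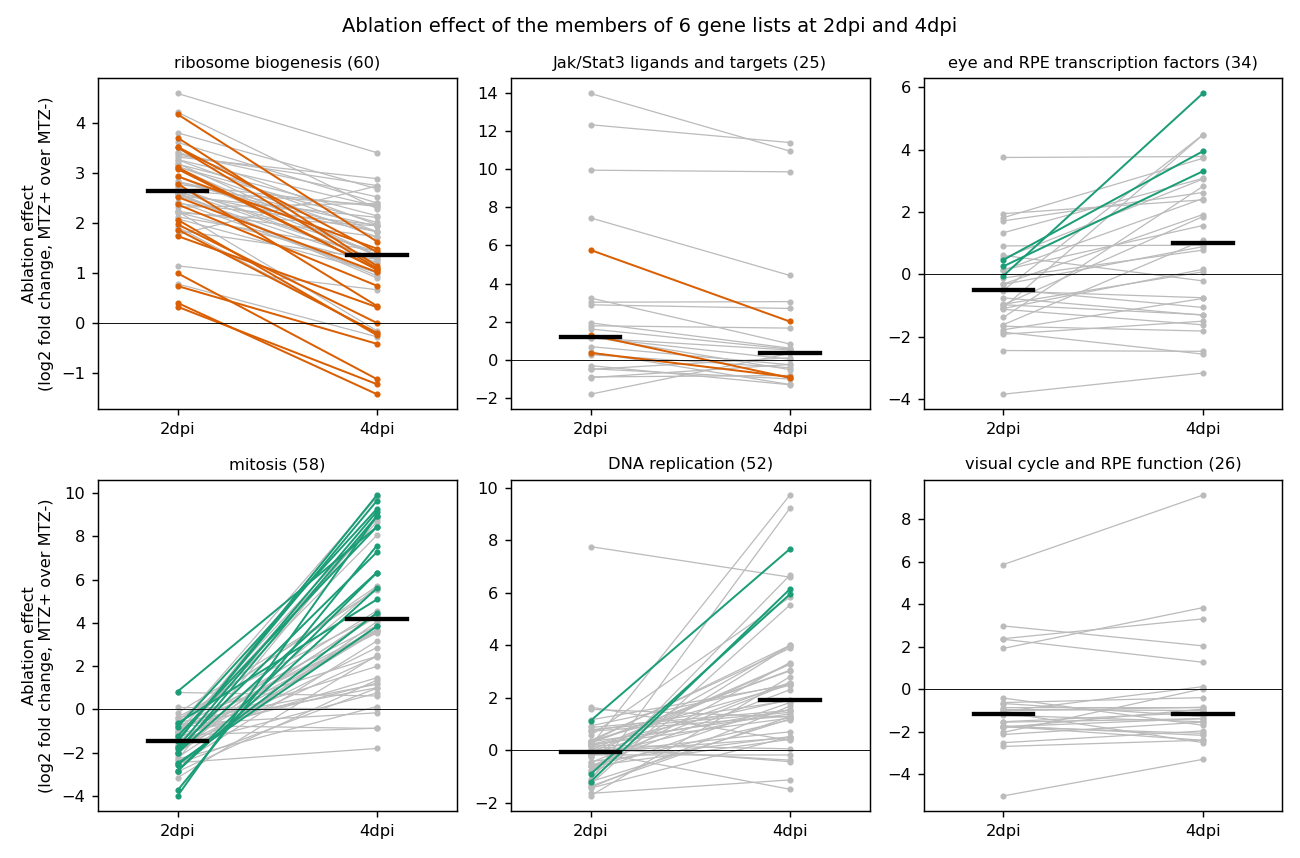
Ablation effect at 2dpi and 4dpi (log2 fold change, MTZ+ over MTZ-) of the tested members of 6 gene lists, 1 line a gene, with called changes in orange (lower at 4dpi) or green (higher at 4dpi), other members in grey and black bars at the medians. The ribosome biogenesis median lies at 2.64 at 2dpi and 1.36 at 4dpi, the mitosis median at -1.45 and 4.18, and the visual cycle median at -1.17 and -1.19.

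Reduced genes that were higher in MTZ+ cells numbered 28, with a median effect of 3.15 at 2dpi and 1.28 at 4dpi. Beside the ribosome genes they held *nfkbiaa*, the inhibitor of NF-κB that is itself a target of that factor. It had 136, 76.6 and 160 CPM in MTZ+ 2dpi libraries against 4.78, 6.52 and 6.44 CPM in MTZ- 2dpi libraries, and 48.4, 79.0 and 56.1 CPM in MTZ+ 4dpi libraries against 24.3, 11.8 and 16.1 CPM in MTZ- 4dpi libraries. The groups were apart at both times, and the change of -2.58 ± 0.46 had an adjusted p of 0.0156, or 0.0579 with the date block. *Bag3*, a co-chaperone that sends misfolded proteins to autophagy, had an effect of 3.63 ± 0.31 at 2dpi and 1.77 ± 0.29 at 4dpi, with a change adjusted p of 0.0293. Its call was lost in 7 of the 12 removals and with the block (0.0637).

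Among 25 ligands, receptors and targets of Jak/Stat3 signalling, the pathway through which interleukin 6 family cytokines and leptin act, 12 were called higher in MTZ+ cells at 2dpi and 1 lower, and at 4dpi 7 were called higher and 2 lower. Over all genes tested, 10.3% were called higher and 10.1% lower at 2dpi, and 13.2% higher and 9.67% lower at 4dpi. The median effect was 1.22 at 2dpi and 0.34 at 4dpi, against 0.02 and 0.20 over all genes tested. The change was called for 3, all lower at 4dpi (1.27% of all genes tested were), and its median over the list was -0.95 against 0.14. The 3 were the receptor *lifrb* (-3.75 ± 0.92, adjusted p = 0.0495), the cytokine receptor-like gene *crlf1a* (-2.24 ± 0.52, adjusted p = 0.0413) and the kinase gene *pim1* (-1.26 ± 0.26, adjusted p = 0.0260). Their calls were fragile: 0 were called without MTZ- 2dpi replicate 2, MTZ+ 4dpi replicate 3 or MTZ- 4dpi replicate 1, and 1 without MTZ+ 2dpi replicate 1 or 3, MTZ+ 4dpi replicate 1 or 2 or MTZ- 4dpi replicate 2. *Socs3a*, the feedback inhibitor that Stat3 induces, averaged 263 CPM in MTZ+ 2dpi against 27.7 CPM in MTZ- 2dpi, and 84.4 CPM in MTZ+ 4dpi against 47.2 CPM in MTZ- 4dpi. Its change of -2.41 ± 0.64 was not called (adjusted p = 0.0633) and was called with the date block (0.0434), and the same held for *il6st*, the shared receptor gp130 (-1.32 ± 0.35, 0.0619 and 0.0457 with the block).

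Of 25 chemokines and cytokines, 6 were called higher at 2dpi and 7 at 4dpi (10.3% and 13.2% of all genes tested were). The change was called for 3 (2.99% of all genes tested had a called change), with *mif* higher at 4dpi (1.48 ± 0.32, adjusted p = 0.0315) and *cxcl8a* and *cxcl18a.1* lower. *Cxcl18a.1* had 14.0, 12.5 and 9.31 CPM in MTZ+ 2dpi libraries and was at 0 in the MTZ- 2dpi libraries, and it had 3.06, 3.20 and 2.28 CPM in MTZ+ 4dpi libraries against 0.176, 0 and 0.0769 CPM in MTZ- 4dpi libraries. Its level in MTZ+ cells was lower at 4dpi in every library, and its call (adjusted p = 0.0496) was lost in 11 of the 12 removals. That of *mif* was lost in 8. The neutrophil attractant *cxcl8a* had 11.6, 10.98 and 5.80 CPM in MTZ+ 2dpi libraries against 0, 0.0545 and 0 CPM in MTZ- 2dpi libraries. At 4dpi it had 6.65, 16.5 and 14.1 CPM in MTZ+ libraries against 0.879, 0.383 and 0.846 CPM in MTZ- libraries, so its level in MTZ+ cells overlapped between the times and the MTZ- level was the one that differed. Its call of a changed effect (adjusted p = 0.0435) was lost in 10 of the 12 removals and with the block (0.0935). Leukocyte markers summed to 13.8 to 150.4 CPM in MTZ+ 2dpi against 3.26 to 43.3 CPM in MTZ- 2dpi, and to 9.99 to 123 CPM in MTZ+ 4dpi against 5.14 to 37.5 CPM in MTZ- 4dpi. Of 16 leukocyte markers tested, 1 had a called change, *csf1ra*, a receptor of macrophages and pigment cells, with 1.18, 1.67 and 6.55 CPM in MTZ+ 4dpi libraries against 0, 0 and 0.0385 CPM in MTZ- 4dpi libraries. That call (adjusted p = 0.0471) was lost in 11 of the 12 removals. Of the 23 markers listed, 4 were at 0 in every MTZ+ 2dpi library, 6 in every MTZ- 2dpi library, 1 in every MTZ+ 4dpi library and 6 in every MTZ- 4dpi library. The part of leukocytes in these values was not tested.

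Reduced genes that were lower in MTZ+ cells numbered 11. *Fmnl1a*, a formin that assembles actin filaments (chr3:37196258-37235300), had 0, 0 and 0.0418 CPM in MTZ+ 2dpi libraries against 10.6, 8.21 and 19.6 CPM in MTZ- 2dpi libraries. It had 2.87, 2.00 and 3.05 CPM in MTZ+ 4dpi libraries against 14.2, 16.6 and 17.996 CPM in MTZ- 4dpi libraries (adjusted p of the change 0.00618), so it was close to absent at first, and at 4dpi it was higher but still below every MTZ- library. *Tcn2*, the vitamin B12 carrier transcobalamin, averaged 31.7 CPM in MTZ+ 2dpi against 224 CPM in MTZ- 2dpi, and 62.3 CPM in MTZ+ 4dpi against 140 CPM in MTZ- 4dpi (change 1.65 ± 0.32, adjusted p = 0.0204).

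Early down genes included enzymes of metabolism. *Amt*, the aminomethyltransferase of the glycine cleavage system (chr8:26396552-26408670), had 47.2, 38.62 and 44.0 CPM in MTZ+ 2dpi libraries against 298, 244 and 271 CPM in MTZ- 2dpi libraries. The values at 4dpi were 78.1, 39.8 and 52.2 CPM in MTZ+ libraries against 51.2, 75.8 and 58.8 CPM in MTZ- libraries. The effect changed by 2.52 ± 0.34 (adjusted p = 0.00624). The MTZ+ levels overlapped between the times, while every MTZ- library was lower at 4dpi than at 2dpi. The fatty acid oxidation genes *decr1* (effect -1.95 ± 0.23 at 2dpi, 0.12 ± 0.22 at 4dpi) and *acaa1* (-1.87 ± 0.18 and -0.29 ± 0.18) were early down, and so was *gnpda1*, which turns glucosamine 6-phosphate into fructose 6-phosphate (-2.44 ± 0.23 and -0.19 ± 0.22). From 2dpi to 4dpi *decr1* shifted by 0.22 in MTZ+ cells and -1.82 in MTZ- cells, whereas both arms of *acaa1* (0.81 and -0.75) and *gnpda1* (1.19 and -1.02) moved. *Cat*, the catalase gene, was early down too (-1.25 ± 0.18 and -0.03 ± 0.18, change adjusted p = 0.0256), though its call was lost in 5 of the 12 removals.

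Other early down genes differed in the arm that moved. *Col11a1a*, a fibrillar collagen chain, had 14.5, 13.2 and 15.1 CPM in MTZ+ 2dpi libraries against 105, 76.8 and 107 CPM in MTZ- 2dpi libraries, and 38.1, 29.6 and 28.1 CPM in MTZ+ 4dpi libraries against 11.95, 34.4 and 17.6 CPM in MTZ- 4dpi libraries. Its level at 4dpi was higher in every MTZ+ library and lower in every MTZ- library than at 2dpi. The groups overlapped at 4dpi and the change was 3.33 ± 0.46 (adjusted p = 0.00624). *Psme2*, a subunit of the proteasome activator PA28, had an effect of -3.12 ± 0.35 at 2dpi and 0.27 ± 0.32 at 4dpi, and *slc39a7*, a zinc transporter of the secretory pathway, -1.26 ± 0.19 and 0.61 ± 0.19. The laminin chain gene *lama5*, part of the RPE basement membrane, averaged 13.3 CPM in MTZ+ 2dpi against 58.2 CPM in MTZ- 2dpi, and 41.1 CPM in MTZ+ 4dpi against 72.4 CPM in MTZ- 4dpi. The larger shift of level was in the MTZ+ cells (change of the effect 1.32 ± 0.26, adjusted p = 0.0242), with the call lost in 4 of the 12 removals.

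Photoreceptor transcripts were found in the same class and among the reversed genes. The ultraviolet cone opsin *opn1sw1* had 10.3, 13.1 and 0.752 CPM in MTZ+ 2dpi libraries against 575, 2777 and 1064 CPM in MTZ- 2dpi libraries, and 285, 105 and 35.2 CPM in MTZ+ 4dpi libraries against 31.6, 8.46 and 41.4 CPM in MTZ- 4dpi libraries. Its change of 9.89 ± 1.65 (adjusted p = 0.0166) lost the call without MTZ- 4dpi replicate 1 (0.0510) and with the date block (0.0502). The 8 photoreceptor markers together summed to 87.99 to 5758 CPM in MTZ+ 2dpi against 1080.2 to 5986 CPM in MTZ- 2dpi, and to 479 to 1409.6 CPM in MTZ+ 4dpi against 90.5 to 521 CPM in MTZ- 4dpi. Of the 8, 0 were called higher and 2 lower in MTZ+ cells at 2dpi, and 2 higher and 0 lower at 4dpi. The shares over all genes tested were 10.3% higher and 10.1% lower at 2dpi, and 13.2% higher and 9.67% lower at 4dpi. The change was called for 2 (2.99% of all genes tested had a called change), *opn1sw1* and the cone arrestin *arr3b*. The part of photoreceptor RNA in the sorted cells was not tested.

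Late up genes, the largest class, included matrix, signalling and mitochondrial genes. *Col4a6*, a basement membrane collagen chain, had 329, 237 and 336 CPM in MTZ+ 2dpi libraries against 568, 351 and 443 CPM in MTZ- 2dpi libraries. At 4dpi it had 293, 275 and 272 CPM in MTZ+ libraries against 68.0, 104 and 78.3 CPM in MTZ- libraries. Every MTZ+ library was below every MTZ- library at 2dpi (effect -0.59, not called) and above at 4dpi. The MTZ+ level overlapped between the times while the MTZ- level was lower at 4dpi, and the effect changed by 2.34 ± 0.31 (adjusted p = 0.00624). *Atp5mc1*, the c subunit of the mitochondrial ATP synthase, had means of 618 CPM in MTZ+ 2dpi against 550 CPM in MTZ- 2dpi, and 414 CPM in MTZ+ 4dpi against 110 CPM in MTZ- 4dpi (change 1.74 ± 0.26, adjusted p = 0.00921), so its level was lower at 4dpi in both arms. *Mibp* likewise was lower at 4dpi in both arms, with means of 88.3 CPM in MTZ+ 2dpi against 50.5 CPM in MTZ- 2dpi, and 38.1 CPM in MTZ+ 4dpi against 1.09 CPM in MTZ- 4dpi (change 4.31 ± 0.55, adjusted p = 0.00550).

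*Bmp7b* and *id3* were late up with higher levels at 4dpi in MTZ+ cells themselves. *Bmp7b*, a bone morphogenetic protein ligand (chr23:6421414-6522099), had 27.2, 23.5 and 18.04 CPM in MTZ+ 2dpi libraries against 17.1, 21.5 and 17.1 CPM in MTZ- 2dpi libraries, and 64.7, 66.4 and 60.1 CPM in MTZ+ 4dpi libraries against 13.01, 11.98 and 8.73 CPM in MTZ- 4dpi libraries. *Id3*, an inhibitor of helix-loop-helix factors and a target of that signalling, had 38.2, 27.2 and 30.4 CPM in MTZ+ 2dpi libraries against 32.3, 28.3 and 19.1 CPM in MTZ- 2dpi libraries, and 61.6, 67.5 and 95.3 CPM in MTZ+ 4dpi libraries against 11.4, 6.43 and 4.81 CPM in MTZ- 4dpi libraries. Both overlapped at 2dpi and were apart at 4dpi, and every MTZ+ 4dpi library was above every MTZ+ 2dpi library. The changes were 2.201 ± 0.32 for *bmp7b* (adjusted p = 0.00726) and 3.05 ± 0.46 for *id3* (adjusted p = 0.00921). *Ttyh3b*, of a family of chloride channels, changed by 3.01 ± 0.41 (adjusted p = 0.00624).

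**Figure D4:**
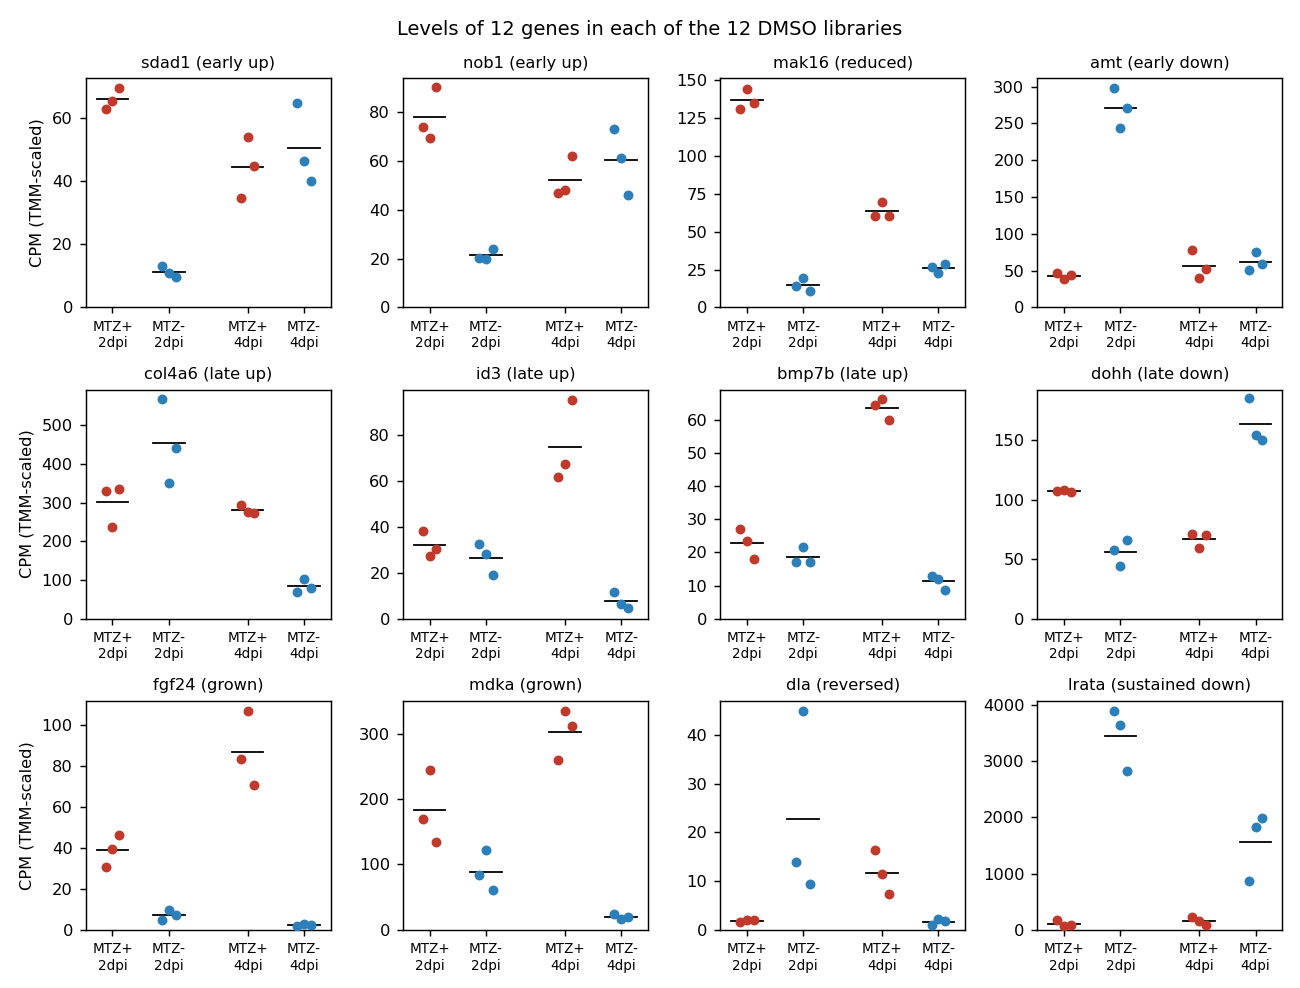
Levels (CPM scaled by the trimmed mean of M-values, linear axes from 0) of 12 genes in the 12 DMSO libraries, MTZ+ in red and MTZ- in blue, with bars at the means of 3 libraries. The 2dpi gap of *sdad1*, *nob1* and *amt* is gone at 4dpi, that of *bmp7b* and *id3* is present at 4dpi only, *col4a6* and *dohh* lie on opposite sides at the 2 times, and the gap of *lrata* is present at both times.

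Of 34 eye and RPE transcription factors, 3 were called higher in MTZ+ cells and 8 lower at 2dpi, and 14 were called higher and 9 lower at 4dpi. Over all genes tested 10.3% were called higher and 10.1% lower at 2dpi, and 13.2% higher and 9.67% lower at 4dpi. The median effect was -0.49 at 2dpi and 1.01 at 4dpi, and the change was called for 3, all higher at 4dpi (1.72% of all genes tested were), among them *id3* and *rx1*. It was called for 5 with the date block and for 1 without MTZ+ 2dpi replicate 3. *Rx1*, a homeobox factor of the eye field and photoreceptors, had 47.0, 45.9 and 29.6 CPM in MTZ+ 2dpi libraries against 24.8, 49.0 and 14.7 CPM in MTZ- 2dpi libraries, and 73.0, 76.5 and 71.0 CPM in MTZ+ 4dpi libraries against 5.27, 1.76 and 7.23 CPM in MTZ- 4dpi libraries. The groups overlapped at 2dpi only, and the change of 3.48 ± 0.68 (adjusted p = 0.0207) lost its call without MTZ+ 2dpi replicate 3 (0.0519). Inner retinal neuron markers summed to 303 to 1085 CPM in MTZ+ 2dpi against 422 to 1028 CPM in MTZ- 2dpi, and to 504 to 1039.5 CPM in MTZ+ 4dpi against 377 to 423 CPM in MTZ- 4dpi, and 9 of 23 were called higher in MTZ+ cells at 4dpi against 2 at 2dpi. *Gad1b*, the enzyme that makes the transmitter GABA, had 7.96, 6.73 and 4.84 CPM in MTZ+ 4dpi libraries against 0.132, 0 and 0.0385 CPM in MTZ- 4dpi libraries. The part of retinal neurons in the transcription factor values was not tested.

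Mitosis genes were the list with the most called changes toward a higher effect. Of 58, 16 changed, all higher at 4dpi (1.72% of all genes tested were), with 10 late up, 2 reversed and 4 unplaced. At 2dpi 0 were called higher in MTZ+ cells and 4 lower, and at 4dpi 25 were called higher and 1 lower. The shares of all genes tested were 10.3% higher and 10.1% lower at 2dpi, and 13.2% higher and 9.67% lower at 4dpi. The median effect was -1.45 at 2dpi and 4.18 at 4dpi, or 3.82 at 4dpi with the 19 members that had at most 3 counts in every library of a group set to their bound. No member was called higher at 2dpi by DESeq2 either, and 1 was higher at an unadjusted p under 0.05. The larger shift was in the intact larvae, with a median of 0.46 from 2dpi to 4dpi in MTZ+ cells and -3.17 in MTZ- cells. *Mki67*, the proliferation antigen, had 4.78, 19.2 and 2.88 CPM in MTZ+ 2dpi libraries against 10.2, 75.05 and 10.7 CPM in MTZ- 2dpi libraries, and 8.01, 4.95 and 7.52 CPM in MTZ+ 4dpi libraries against 0, 0 and 0.115 CPM in MTZ- 4dpi libraries. Its level in MTZ+ cells overlapped between the times, and 2 of the 3 intact libraries held none at 9dpf. In MTZ- libraries, photoreceptor markers summed to 1080.2 to 5986 CPM at 2dpi and 90.5 to 521 CPM at 4dpi. Inner retinal neuron markers summed to 422 to 1028 CPM and 377 to 423 CPM. Müller glia markers summed to 7977 to 12948 CPM and 11898 to 15987 CPM, which overlap. The median Müller glia marker averaged 37.9 CPM in MTZ- 2dpi and 31.0 CPM in MTZ- 4dpi libraries. The part of other retinal cells in the mitosis values was not tested.

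Replicate 2 was the highest 2dpi library of both arms for *mki67*, and the MTZ- one decided much of the mitosis result. Without MTZ- 2dpi replicate 2, 6 mitosis genes had a called change and the median change was 3.77, against 5.73 with all libraries, and 2 were called higher and 1 lower at 2dpi. The number was 7 with the date block, 7 to 10 without any one of MTZ+ 2dpi replicates 1 to 3, MTZ+ 4dpi replicates 1 and 3 and MTZ- 4dpi replicate 1, and 11 to 16 without any one of the others. *Mki67* itself remained called in all 12 (adjusted p 0.0134 to 0.0464), as did *cdca5*, the sororin gene that holds sister chromatids together. *Cdca5* had 1.08, 5.28 and 4.39 CPM in MTZ+ 4dpi libraries and was at 0 in all MTZ- 4dpi libraries, which makes its level at least 27.2-fold higher in MTZ+ cells at that time, with 3 counts a library as the limit of detection. *Foxm1*, a transcription factor of mitotic genes, went another way and was lower in MTZ+ cells at both times (effect -2.46 ± 0.41 at 2dpi and -1.81 ± 0.40 at 4dpi).

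Of 52 DNA replication genes, 1 was called higher in MTZ+ cells at 2dpi and 1 lower, and 18 were called higher and 1 lower at 4dpi. For comparison, 10.3% of all genes tested were called higher and 10.1% lower at 2dpi, and 13.2% higher and 9.67% lower at 4dpi. The median effect of the 52 was -0.07 at 2dpi and 1.91 at 4dpi (1.86 with 5 members at their bound, as above), and the change was called for 3, all higher at 4dpi (1.72% of all genes tested were). *Ccne2*, the cyclin E that starts DNA synthesis, had 10.8, 10.47 and 15.6 CPM in MTZ+ 2dpi libraries against 2.16, 11.2 and 3.51 CPM in MTZ- 2dpi libraries, and 8.48, 20.3 and 14.4 CPM in MTZ+ 4dpi libraries against 0, 0.0383 and 0.154 CPM in MTZ- 4dpi libraries. The groups overlapped at 2dpi and were apart at 4dpi, with an adjusted p of 0.0141 for the change. The replication helicase gene *mcm2* (adjusted p = 0.0413) and the histone chaperone gene *asf1ba* (adjusted p = 0.0414) each lost the call in 10 of the 12 removals. Without MTZ- 2dpi replicate 2, 1 of the 52 had a called change, the median change was 1.19 against 2.04 with all libraries, and 6 were called higher at 2dpi against 1. Likewise 1 was called without MTZ+ 2dpi replicate 1 or 3, MTZ- 2dpi replicate 1 or MTZ+ 4dpi replicate 1 or 2. The part of other retinal cells in the DNA replication values was not tested.

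Some late up calls concerned single enzymes. *Dnmt3bb.1*, a DNA methyltransferase, had 6.93, 17.02 and 12.4 CPM in MTZ+ 4dpi libraries and was at 0 in all MTZ- 4dpi libraries, at least 92.0-fold higher in MTZ+ cells, against means of 10.7 CPM in MTZ+ 2dpi and 4.01 CPM in MTZ- 2dpi. Its change had an adjusted p of 0.0130, or 0.0618 with the block. *Acat2*, the first enzyme of cholesterol synthesis, averaged 21.8 CPM in MTZ+ 2dpi against 21.2 CPM in MTZ- 2dpi, and 17.2 CPM in MTZ+ 4dpi against 4.18 CPM in MTZ- 4dpi, and lost its call (adjusted p = 0.0204) without MTZ- 2dpi replicate 2 (0.0545). The lysosomal hexosaminidase gene *hexb* had an effect of -0.60 ± 0.22 at 2dpi and 1.01 ± 0.22 at 4dpi (change adjusted p = 0.0204, or 0.0550 with the block).

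Late down genes with small adjusted p included *inavab* (-2.77 ± 0.38, adjusted p = 0.00633), *ppp1r9alb* (-2.71 ± 0.40, adjusted p = 0.00827) and several genes of translation and ribosome assembly. *Dohh*, the enzyme that completes the hypusine residue of translation factor eIF5A (chr8:20852995-20858676), had 108, 108 and 106 CPM in MTZ+ 2dpi libraries against 57.4, 43.9 and 66.4 CPM in MTZ- 2dpi libraries. At 4dpi it had 71.0, 59.4 and 70.34 CPM in MTZ+ libraries against 185, 154 and 150 CPM in MTZ- libraries. The groups were apart at both times in opposite directions, with effects of 0.94 ± 0.18 and -1.29 ± 0.18, and the first was just under the limit of 1 for a call. The change of -2.22 ± 0.25 had an adjusted p of 0.00363.

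*Eif3d*, a subunit of initiation factor eIF3, had 294, 257 and 312 CPM in MTZ+ 2dpi libraries against 270, 243 and 292 CPM in MTZ- 2dpi libraries, and 251, 244 and 210 CPM in MTZ+ 4dpi libraries against 579, 597 and 535 CPM in MTZ- 4dpi libraries (change -1.38 ± 0.22, adjusted p = 0.0115). The 2dpi groups overlapped and the 4dpi groups did not. *Pno1* (-1.72 ± 0.26) and *nop53* (-1.998 ± 0.32), assembly factors of the small and the large subunit, and the importin *ipo7* (-2.08 ± 0.33) changed likewise, each with an effect above 0 at 2dpi and below -1 at 4dpi. The nucleolar helicase *ddx21*, a member of the ribosome biogenesis list, had effects of 0.99 ± 0.28 and -1.13 ± 0.28 (change adjusted p = 0.0192).

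Receptors were also found among late down genes. *Itga6a*, an integrin subunit that binds laminin, averaged 37.2 CPM in MTZ+ 2dpi against 44.0 CPM in MTZ- 2dpi, and had 32.6, 33.7 and 24.3 CPM in MTZ+ 4dpi libraries against 247, 200 and 127 CPM in MTZ- 4dpi libraries (change -2.42 ± 0.40, adjusted p = 0.0130). Its level in MTZ+ cells differed little between the times, while every MTZ- 4dpi library was above every MTZ- 2dpi library. The epidermal growth factor receptor gene *egfra* (-1.32 ± 0.27, adjusted p = 0.0257) and the Wnt receptor gene *fzd8a* (-1.65 ± 0.38, adjusted p = 0.0372) lost their calls in 6 and 9 of the 12 removals. Lens and surface epithelial markers summed to 34.6 to 48.0 CPM in MTZ+ 2dpi against 124 to 211 CPM in MTZ- 2dpi, and to 149 to 313 CPM in MTZ+ 4dpi against 923 to 1358 CPM in MTZ- 4dpi. The sums were thus lower in MTZ+ libraries at both times. Of 12 such markers tested, 1 was called higher and 1 lower at each time. That is near the shares over all genes tested, 10.3% higher and 10.1% lower at 2dpi, and 13.2% higher and 9.67% lower at 4dpi. A called change was found for 1 of these markers, toward a higher effect at 4dpi (1.72% of all genes tested had one). Their part in these receptor values was not tested.

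Grown genes that were higher in MTZ+ cells numbered 37, with a median effect of 2.27 at 2dpi and 5.09 at 4dpi, or 4.79 with the 13 at the limit of detection in a 4dpi group set to their bound. They included secreted growth factors. *Fgf24*, a fibroblast growth factor (chr14:5506983-5546497), had 30.9, 39.5 and 46.6 CPM in MTZ+ 2dpi libraries against 4.99, 9.44 and 7.05 CPM in MTZ- 2dpi libraries. At 4dpi it had 83.7, 107 and 71.1 CPM in MTZ+ libraries against 2.02, 2.95 and 2.15 CPM in MTZ- libraries. The groups were apart at both times, the MTZ+ level was higher and the MTZ- level lower at 4dpi, and the effect changed by 2.75 ± 0.39 (adjusted p = 0.00726).

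Midkine (*mdka*), a heparin-binding growth factor of developing and regenerating retina, had 170, 244 and 134 CPM in MTZ+ 2dpi libraries against 84.1, 121 and 61.3 CPM in MTZ- 2dpi libraries, and 260, 335 and 312 CPM in MTZ+ 4dpi libraries against 24.6, 16.3 and 19.6 CPM in MTZ- 4dpi libraries (change 2.87 ± 0.40, adjusted p = 0.00624). Both times were apart, with the wider gap at 4dpi. Fibronectin (*fn1a*), a provisional matrix protein of wounds, had 24.01, 12.8 and 11.99 CPM in MTZ+ 2dpi libraries against 1.51, 0.600 and 0.465 CPM in MTZ- 2dpi libraries. It had 24.9, 43.8 and 33.9 CPM in MTZ+ 4dpi libraries and was at 0 in all MTZ- 4dpi libraries, at least 259-fold higher in MTZ+ cells (adjusted p of the change 0.00835).

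Other grown genes were *rgcc*, a regulator of the cell cycle (effect 2.39 ± 0.20 at 2dpi and 4.73 ± 0.22 at 4dpi), *abracl*, an actin regulator (1.15 ± 0.22 and 4.08 ± 0.25), and *dnajb11*, an endoplasmic reticulum co-chaperone (1.35 ± 0.25 and 3.53 ± 0.27). *Abracl* averaged 112 CPM in MTZ+ 2dpi against 50.5 CPM in MTZ- 2dpi, and 90.6 CPM in MTZ+ 4dpi against 5.37 CPM in MTZ- 4dpi. Its larger shift was the lower MTZ- level at 4dpi, and *dnajb11* had the same form. *Hepacama*, a glial adhesion molecule, had 9.80, 11.8 and 5.41 CPM in MTZ+ 4dpi libraries and was at 0 in all MTZ- 4dpi libraries, at least 68.2-fold higher. The glutamate transporter *slc1a2b* and the water channel *aqp1a.1*, both on the Müller glia list, were grown too, with calls lost in 9 and 10 of the 12 removals (adjusted p = 0.0426 and 0.0415). The Müller glia markers summed to 8866 to 13589.5 CPM in MTZ+ 2dpi against 7977 to 12948 CPM in MTZ- 2dpi, and to 12992 to 18688 CPM in MTZ+ 4dpi against 11898 to 15987 CPM in MTZ- 4dpi, overlapping at both times, and 8 of 10 were called higher in MTZ+ cells at 4dpi against 7 at 2dpi (13.2% and 10.3% of all genes tested were). The median marker averaged 222 CPM in MTZ+ 2dpi against 37.9 CPM in MTZ- 2dpi. At 4dpi it averaged 506 CPM in MTZ+ against 31.0 CPM in MTZ- libraries. The median effect was 2.47 at 2dpi and 3.88 at 4dpi. The change was called for 2 of the 10, both higher at 4dpi (1.72% of all genes tested were). The part of Müller glia in the grown genes was not tested.

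The 16 reversed genes had 13 effects that were higher and 3 that were lower at 4dpi. *Eif4a2*, an RNA helicase of translation initiation, had 52.8, 69.6 and 64.4 CPM in MTZ+ 2dpi libraries against 21.0, 34.5 and 30.3 CPM in MTZ- 2dpi libraries, and 26.3, 32.8 and 38.8 CPM in MTZ+ 4dpi libraries against 97.4, 103 and 79.9 CPM in MTZ- 4dpi libraries. The threonine dehydrogenase gene *tdh* had effects of 1.43 ± 0.24 at 2dpi and -1.20 ± 0.23 at 4dpi, and *dusp6*, a phosphatase that turns off ERK and is induced by it, 1.18 ± 0.28 and -1.14 ± 0.28. In these 3 genes every 2dpi MTZ+ library was above every 2dpi MTZ- library, and every 4dpi MTZ+ library was below every 4dpi MTZ- library.

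In the other direction, *dla*, a Delta ligand of the Notch receptor found on newborn neurons (chr1:54013457-54026352), had 1.503, 2.03 and 2.05 CPM in MTZ+ 2dpi libraries against 13.9, 44.8 and 9.38 CPM in MTZ- 2dpi libraries, and 16.4, 11.4 and 7.24 CPM in MTZ+ 4dpi libraries against 0.879, 2.14 and 1.77 CPM in MTZ- 4dpi libraries. *Psmd5*, a chaperone of proteasome assembly, had effects of -1.68 ± 0.31 and 1.13 ± 0.30, with the MTZ+ mean nearly level (19.3 CPM at 2dpi and 18.2 CPM at 4dpi). The mitotic spindle gene *nusap1* had 4.201, 0.995 and 1.55 CPM in MTZ+ 2dpi libraries against 12.2, 74.9 and 3.19 CPM in MTZ- 2dpi libraries, and 7.21, 5.53 and 12.5 CPM in MTZ+ 4dpi libraries against 0, 0 and 0.115 CPM in MTZ- 4dpi libraries. Its 2dpi groups overlapped in level although the effect was called. *Arr3b* had 37.1, 29.9 and 33.1 CPM in MTZ+ 2dpi libraries against 138, 309 and 149 CPM in MTZ- 2dpi libraries, and 332, 182 and 54.3 CPM in MTZ+ 4dpi libraries against 19.2, 2.30 and 4.73 CPM in MTZ- 4dpi libraries. It is one of the photoreceptor markers whose sums are given above.

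Sustained genes were more numerous than all changing classes together, 2085 against 531. Neither number holds the 1297 genes called at 2dpi only and the 1669 called at 4dpi only, whose change was not called. For 259 of the sustained genes (12.4%), the 95% interval of the change lay within 1 log2 unit of 0 on both sides. For the others the interval reached past that size, or at least 1 group had no more than 3 counts in any library. The median interval over all genes was 3.28 log2 units wide. The sustained up class also held cytokines of wound signalling, leptin and interleukin 11, for which no change could be fitted. For them the label does not show a steady effect. Leptin (*lepb*) had 22.7, 29.004 and 17.3 CPM in MTZ+ 2dpi libraries and 1.74, 32.0 and 2.32 CPM in MTZ+ 4dpi libraries, and was at 0 in all 6 MTZ- libraries. Its MTZ+ mean was at least 214-fold higher at 2dpi and 91.2-fold at 4dpi, where most of the mean came from replicate 2. Interleukin 11 (*il11b*) had 58.2, 79.0 and 77.8 CPM in MTZ+ 2dpi libraries and 3.58, 17.98 and 4.88 CPM in MTZ+ 4dpi libraries, and was likewise at 0 in all 6 MTZ- libraries. Its MTZ+ groups did not overlap, and every MTZ+ 4dpi library was lower. With both MTZ- groups at 0, a change of the ratio between the times could not be fitted for *il11b* or for *lepb*. In both genes the highest MTZ+ 4dpi value was that of replicate 2, whose raw read name has a letter out of order (given under the processing).

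E-cadherin (*cdh1*), the adhesion molecule of epithelia, was sustained up with effects of 4.79 ± 0.59 at 2dpi and 4.76 ± 0.59 at 4dpi (change -0.03 ± 0.73, adjusted p = 0.996). The transcription factor gene *cebpb* had 3.67 ± 0.46 and 2.18 ± 0.43 (change -1.49 ± 0.58, adjusted p = 0.187). The early response factor *junba* averaged 321 CPM in MTZ+ 2dpi against 37.4 CPM in MTZ- 2dpi, and 103 CPM in MTZ+ 4dpi against 106 CPM in MTZ- 4dpi, yet its change of -3.14 ± 0.88 was not called (adjusted p = 0.0785), the MTZ- 4dpi libraries ranging from 19.6 to 171 CPM. Of 30 AP-1 and immediate early factors, 12 were called higher and 1 lower at 2dpi, and 10 higher and 4 lower at 4dpi. The change was below 0 for 24 of the 30 (7986 of all 17741 genes tested), with a median of -0.74 against 0.14. It was called for 1, *dusp2*, which was lower in MTZ+ cells at both times (adjusted p = 0.0391, lost in 10 of the 12 removals). The shares over all genes tested were 10.3% higher and 10.1% lower at 2dpi, 13.2% higher and 9.67% lower at 4dpi, and 2.99% with a called change.

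Visual cycle genes were more often called lower than higher at both times. Of 26 visual cycle and RPE function genes, 12 were called lower in MTZ+ cells at 2dpi and 3 higher, 14 lower and 5 higher at 4dpi, and 0 had a called change by edgeR, with median effects of -1.17 and -1.19. DESeq2 called 1, and 4 had an unadjusted p under 0.05. Among all genes tested, 10.1% were called lower and 10.3% higher at 2dpi, and 9.67% lower and 13.2% higher at 4dpi. The change was called for 2.99% of all genes tested, so 0 of 26 is near that share. *Lrata*, which esterifies retinol, had 175, 64.5 and 77.7 CPM in MTZ+ 2dpi libraries against 3887, 3653 and 2817 CPM in MTZ- 2dpi libraries, and 222, 164 and 85.3 CPM in MTZ+ 4dpi libraries against 860, 1831 and 1982 CPM in MTZ- 4dpi libraries. The groups were apart at both times, and the change of 1.72 ± 0.61 was not called (adjusted p = 0.145). *Rpe65a*, the isomerase whose promoter drives the transgene and so the sort, had effects of -2.14 ± 0.36 and -1.55 ± 0.36 (change 0.58 ± 0.49, adjusted p = 0.573). Of the 23 transport genes, 6 were called higher and 4 lower at 2dpi, and 9 higher and 7 lower at 4dpi. The shares over all genes tested were 10.3% higher and 10.1% lower at 2dpi, and 13.2% higher and 9.67% lower at 4dpi. Among the transport genes the taurine transporter *slc6a6a* (-3.86 ± 0.39 and -3.19 ± 0.38) and the glucose transporter *slc2a1b* (-2.89 ± 0.51 and -2.75 ± 0.50) were sustained down.

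Of 22 melanin and melanosome genes, 13 were called lower and 1 higher at 2dpi, and 10 lower and 1 higher at 4dpi. The shares over all genes tested were 10.1% lower and 10.3% higher at 2dpi, and 9.67% lower and 13.2% higher at 4dpi. The change was called for 1 (2.99% of all genes tested had a called change), *pmelb*, the amyloid of the melanosome. It had 1259, 1109 and 2251 CPM in MTZ+ 2dpi libraries against 4159, 2472 and 3160 CPM in MTZ- 2dpi libraries, and 3179, 2496 and 1990 CPM in MTZ+ 4dpi libraries against 1001, 1619 and 1478 CPM in MTZ- 4dpi libraries. The groups were apart at both times in opposite directions, but the call (adjusted p = 0.0331) was lost in 6 of the 12 removals and with the block (0.0567). *Dct*, an enzyme of melanin synthesis, kept effects of -1.79 ± 0.31 and -1.29 ± 0.31 (change adjusted p = 0.586). Matrix proteases (22 genes) and epithelial plasticity genes (33 genes) had 0 called changes by edgeR, 2 each by DESeq2 and 6 and 5 at an unadjusted p under 0.05. Wnt pathway (46), cholesterol synthesis (26), Atf4 stress response (37), p53 (34), oxidative defence (37), chaperone (42), phagocytosis (40), transport (23), growth factor (47) and matrix and Yap/Taz genes (37) had 1 to 4 each. A called change was found for 2.99% of all genes tested, and no list was tested against that share.

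The same change was computed in the 12 rapamycin libraries, which have their own MTZ- controls and share no library with those above. Rapamycin inhibits mTOR complex 1, a kinase that promotes ribosome production and growth. In these libraries the change was called for 2 of 17322 genes (0.0115%), and 1270 had an unadjusted p under 0.05. Of the 531 genes, 395 (74.4%) had a change of the same sign, against 57.2% of all 16849 genes in both fits. The share was 66 of 72 for early up, 56 of 69 for early down and 56 of 59 for late down genes, but 75 of 148 (50.7%) for late up genes. Of all changes in the rapamycin libraries, 55.6% were below 0 and 44.4% above 0. A class whose effect was lower at 4dpi therefore started from a higher background than one whose effect was higher. Of the 60 ribosome biogenesis genes, 54 had a change below 0 in the rapamycin libraries (median -0.54), and of the 58 mitosis genes 33 had one above 0 (median 0.20). The rapamycin libraries were collected on the same dates as the DMSO libraries, so a shared sign is not independent of date. The difference between the DMSO and rapamycin changes was not tested.

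**Figure D5:**
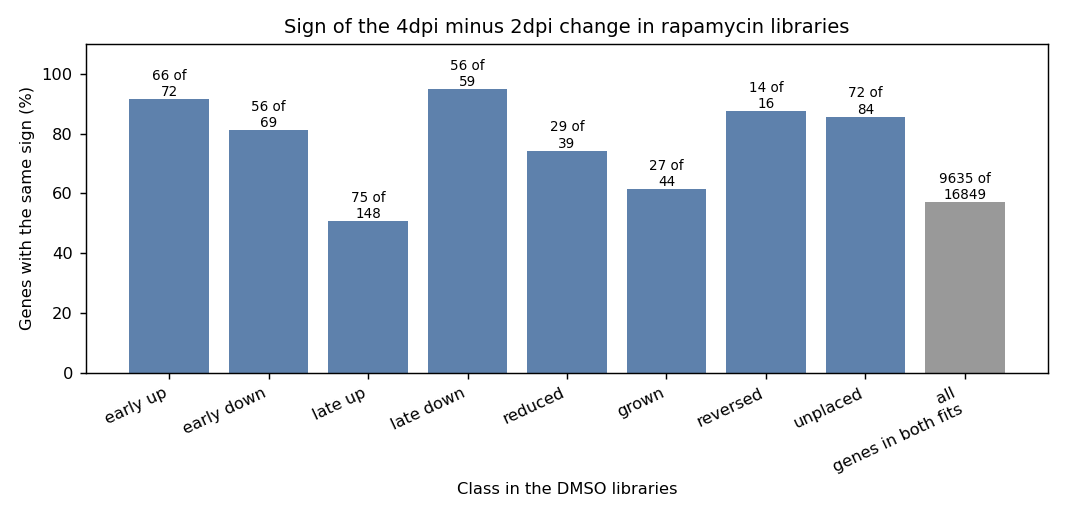
Share of genes (%, from 0) whose change of the ablation effect had the same sign in the rapamycin libraries as in the DMSO libraries, for each class and for all 16849 genes in both fits. Early up (91.7%) and late down (94.9%) genes are highest and late up genes (50.7%) lie below all genes (57.2%). The classes differ in background. Of all changes in the rapamycin libraries, 55.6% were below 0, the sign of early up and late down genes. The other sign, that of late up genes, was held by 44.4%.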

How the data were processed

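RNA of FACS-sorted eGFP+ cells was made into cDNA with a Smart-seq kit, and paired reads were trimmed and aligned to GRCz11 in CLC Genomics Workbench by the authors, who deposited a total count per gene for each library without normalization. The deposited TPM values divide counts by gene length and scale each library to the same sum. Strand use and multimapping are not given in the sources used here, so *pinx1* and *tdh* (both overlapping the same other locus), *nob1*, *psme2*, *dohh*, *mak16*, *nfkbiaa*, *tcn2*, *cd3eap*, *abracl*, *dnajb11*, *nusap1*, *itga6a*, *cat*, *bccip*, *mif* and *cxcl18a.1*, which overlap another gene, are uncertain. Columns of the authors' own comparisons (36, fold changes and p-values) were not used.

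Counts of the 12 DMSO libraries were joined by gene name, filtered with filterByExpr (minimum count 10), scaled by the trimmed mean of M-values (TMM) and fitted with edgeR 4.0.16 (quasi-likelihood, robust) in R 4.3.3, with Benjamini-Hochberg adjustment over all 17741 genes. The filter on fold, adjusted p and a group mean of at least 1 follows the study, which gives no unit for that mean, and TPM was chosen here. CPM values of genes and marker sums are TMM-scaled. Same-date ratios used log2(CPM + 0.5). Folds against groups at 0 set the MTZ+ mean against a floor of 3 counts in 1 library, so they do not bound each library. Replicate numbers share a collection date by the labels of the raw read names. Those names give MTZ+ DMSO libraries the letter C and MTZ+ rapamycin libraries the letter D, except for replicate 2 at 4dpi, where the letters are the other way round. The sample titles were followed for both libraries, and whether they were exchanged was not tested. The deviations of same-numbered MTZ+ and MTZ- libraries from their group means correlated at 0.00857, 0.252 and 0.235 at 2dpi and 0.0114, 0.0267 and 0.0378 at 4dpi. Replicates are separate pools of larvae. The test was checked on simulated data of 16972 genes, where 30 of 70 changes of 3 log2 units, 14 of 64 of 2 and 1 of 66 of 1.5 were called, with 4 unchanged genes called. Changes were planted in MTZ+ 4dpi only and in genes with higher counts, and all other genes had the same mean in the 4 groups. DESeq2 1.42.0, other size factors (RLE), no low-count filter, the date block, all 24 libraries in 1 fit, a CPM filter and the removal of each library were alternatives. Genes were named as the 8 with the smallest adjusted p in each changing class with ratios that did not overlap, the 6 with the largest effects in each sustained class, and up to 8 of each list. The classes, lists and genes were chosen with earlier results of these data known. No sequence of these genes was used here. One member of the eye transcription factor list is counted but not reported by itself here.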

Additional observations from a re-analysis of the deposited data

Results flagged for a closer look

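The ablation effect differed between 2dpi and 4dpi, by the test of the difference itself (edgeR, Benjamini-Hochberg adjusted p), for 531 genes, 305 with a higher and 226 with a lower effect at 4dpi, and 16 of them were called in opposite directions at the 2 times. Among the reversed genes, *eif4a2* (-2.64 on the log2 scale), *tdh* (-2.63) and *dusp6* (-2.33) had a lower effect at 4dpi, and *dla* (6.47), *psmd5* (2.81) and *arr3b* (7.01) a higher one. The fitted changes of *nusap1* (11.31) and *hmmr* (12.94), both genes of the mitotic spindle, are higher as well, but their MTZ- 4dpi libraries held at most 3 counts, so these sizes depend on the prior count of the fit and bound nothing. All 8 kept their calls in each of the 12 single-library removals, but they were picked for small adjusted p in the same libraries. Of all 16 reversed genes, 10 kept their calls in each removal. *Hmmr* lost its call with the date block (adjusted p = 0.0633) and *arr3b* lost its call with all 24 libraries in 1 fit.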

How the results depend on the processing

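None of the 531 was called in the opposite direction in any alternative run, but the number called and the class sizes moved. DESeq2 called 1428 changes (906 higher, 522 lower), with 191 early up, 176 early down, 468 late up, 143 late down, 95 reduced, 123 grown, 30 reversed and 202 unplaced genes, and included 529 of the 531. With the replicate number (date) as a block, 331 were called (182 higher, 149 lower), 260 of them among the 531, with 46 early up, 40 early down, 90 late up, 18 reduced, 28 grown and 49 unplaced genes, and with 9 ribosome biogenesis, 7 mitosis and 5 eye transcription factor genes. With all 24 libraries in 1 fit, 22 genes were reduced and 24 grown, and 373 of the 531 remained called. Other size factors kept 526, no low-count filter 477 and a CPM filter 531. Leaving out 1 library gave 234 to 562 changes, 131 to 323 higher and 97 to 239 lower, with 38 to 87 early up, 26 to 67 early down, 56 to 176 late up, 21 to 78 late down, 13 to 25 reduced, 17 to 53 grown, 6 to 20 reversed, 23 to 62 unplaced, 836 to 1079 sustained up and 890 to 1092 sustained down genes. The effect calls ranged from 2925 to 3602 at 2dpi and from 3204 to 4132 at 4dpi. Called list members ranged from 6 to 15 (ribosome biogenesis, median change -1.57 to -1.21), 6 to 16 (mitosis, 3.77 to 6.27), 1 to 4 (DNA replication, 1.19 to 2.43), 1 to 4 (eye transcription factors, 0.77 to 1.199) and 0 to 2 (Jak/Stat3, -1.14 to -0.77); these list counts were added after seeing the data. The cause of these moves was not tested, beyond the smaller number of libraries in the removals. Of the 56 genes named for the changing classes, 56 stayed called in every removal and with DESeq2, and 51 with the block, whereas 12 of the 531 stayed called in no removal. The 56 were picked for small adjusted p in these same libraries, so their stability largely follows from that choice. Power was limited in simulated data, where edgeR called 14 of 64 changes of 2 log2 units, 30 of 70 of 3 and 4 unchanged genes. In the same data DESeq2 called 25 of 64 and 41 of 70, but also 60 unchanged genes. The 1428 DESeq2 calls are thus from a less strict test and may hold more false calls. The simulated data held few changes, no other ablation effects and no changes in genes of low count, so power in the real libraries was not measured. The biological coefficient of variation between replicates was 0.649, and levels under about 0.1 CPM rest on 3 counts or fewer.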
